A study of Danio rerio with 48 samples.

Results

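The transcripts described are 41 listed genes of the heat shock response and the unfolded protein response, measured in whole adult brains of zebrafish of the AB line. The genes were chosen by name, with earlier results of these data known, and matched to 42 Ensembl IDs of the 32520 in the count tables. Of these IDs, 16 encode cytosolic heat shock factors, chaperones and co-chaperones, 24 belong to the endoplasmic reticulum (ER), and 2 encode the mitochondrial chaperonin pair. The symbol hspa8 stood for 2 IDs, ENSDARG00000037403 and ENSDARG00000068992. The listed hspa4a and hspa4b shared 1 symbol over 2 IDs, ENSDARG00000004754 and ENSDARG00000018989, and which is which is not told by the table. All 42 IDs held counts, and 41 passed the filter on low counts in F0, with hsp90aa1.1 as the exception, while all 42 passed in F1 and F2.

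The study exposed founders (F0) to permethrin, a pyrethroid insecticide, at 10 µg/L early in life, and then profiled their brains as adults along with those of unexposed F1 and F2 offspring. Each generation gave 4 groups of 4 libraries, namely females and males with the source code PH and females and males with the source code SCA. The code PH was taken to mean descent from exposed founders and SCA to mean control fish, which the labels do not spell out, and all fish were of the AB line. Groups are named below by generation, sex and code, such as F1_M_PH, with the source number from the label. Each library is called a fish for short, as the labels do not say whether it holds the brain of 1 fish or of several. The labels used here name no parents, clutch or tank, so libraries of a group may be siblings. The tests of PH against SCA therefore measure spread among libraries and not among separately founded lines.

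Cells answer misfolded protein in the cytosol through heat shock factors, which switch on the HSP70, HSP90, small heat shock protein and co-chaperone genes. Misfolded protein in the ER lumen is sensed by IRE1 (ern1), PERK (eif2ak3) and ATF6 (atf6), and their signals pass through xbp1, atf4 and ddit3 to ER chaperones, disulfide isomerases and the machinery that returns misfolded proteins to the cytosol for degradation. Neurons carry a heavy load of secreted and membrane proteins, and in brain hspa8 and hsp90ab1 are constitutive chaperones while hsp70l is the strongly heat-inducible one in zebrafish.

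Library totals over genes lay between 4802827 in F1_F_PH 1 and 10032850 in F1_F_PH 2, with the widest spread in F1. Replicates differed by more than sampling noise. Transcripts that mark neurons, oligodendrocytes and radial glia were detected in every group, with the 18 neuronal IDs summing to 12030 to 16911 CPM, that is, counts scaled to equal library size. The 24 IDs of eye genes summed to 2167 CPM in F0_F_SCA 18, against 66.6, 201 and 312 in the other 3 fish of its group. The 15 IDs of skeletal muscle genes summed to 1764 CPM in F2_F_SCA 8 and 654 in F0_M_SCA 6, and to at most 202 in the other 46 libraries. In bulk brain, fewer cells of a type and less RNA per cell cannot be told apart. The F0 and F2 files carry the same flow cell name and the F1 files carry none, so F1 and a difference in sequencing cannot be told apart. Within F0 the 4 F0_M_SCA libraries ran on lane L2 and the other 12 on lane L4. Within F2, F2_F_PH 3 and 4 ran on L2 and the other 14 on L3, while the F1 files carry no lane.

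Members are described by CPM on a scale shared by all 48 libraries. As the values are not divided by transcript length, levels are compared between fish and never between genes. Some members were held within narrow limits over the 48 fish. The highest library lay 1.47-fold above the lowest for sel1l, which anchors the ER ubiquitin ligase, 1.48-fold for the lectin chaperone canx, 1.58-fold for the mannosidase-like edem1 and 1.59-fold for xbp1. The widest ranges belonged to hsp70l at 21.8-fold, hsp90aa1.1 at 12.2-fold and ern1 at 7.64-fold. The hsp90aa1.1 gene, an HSP90 of developing muscle in zebrafish, had only 2 to 25 counts per library, and its tandem neighbour hsp90aa1.2 had 434 to 2381, so reads shared by the copies could weigh on the lower one. The hspd1 and hspe1 genes also lie next to each other.

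**Figure D1:**
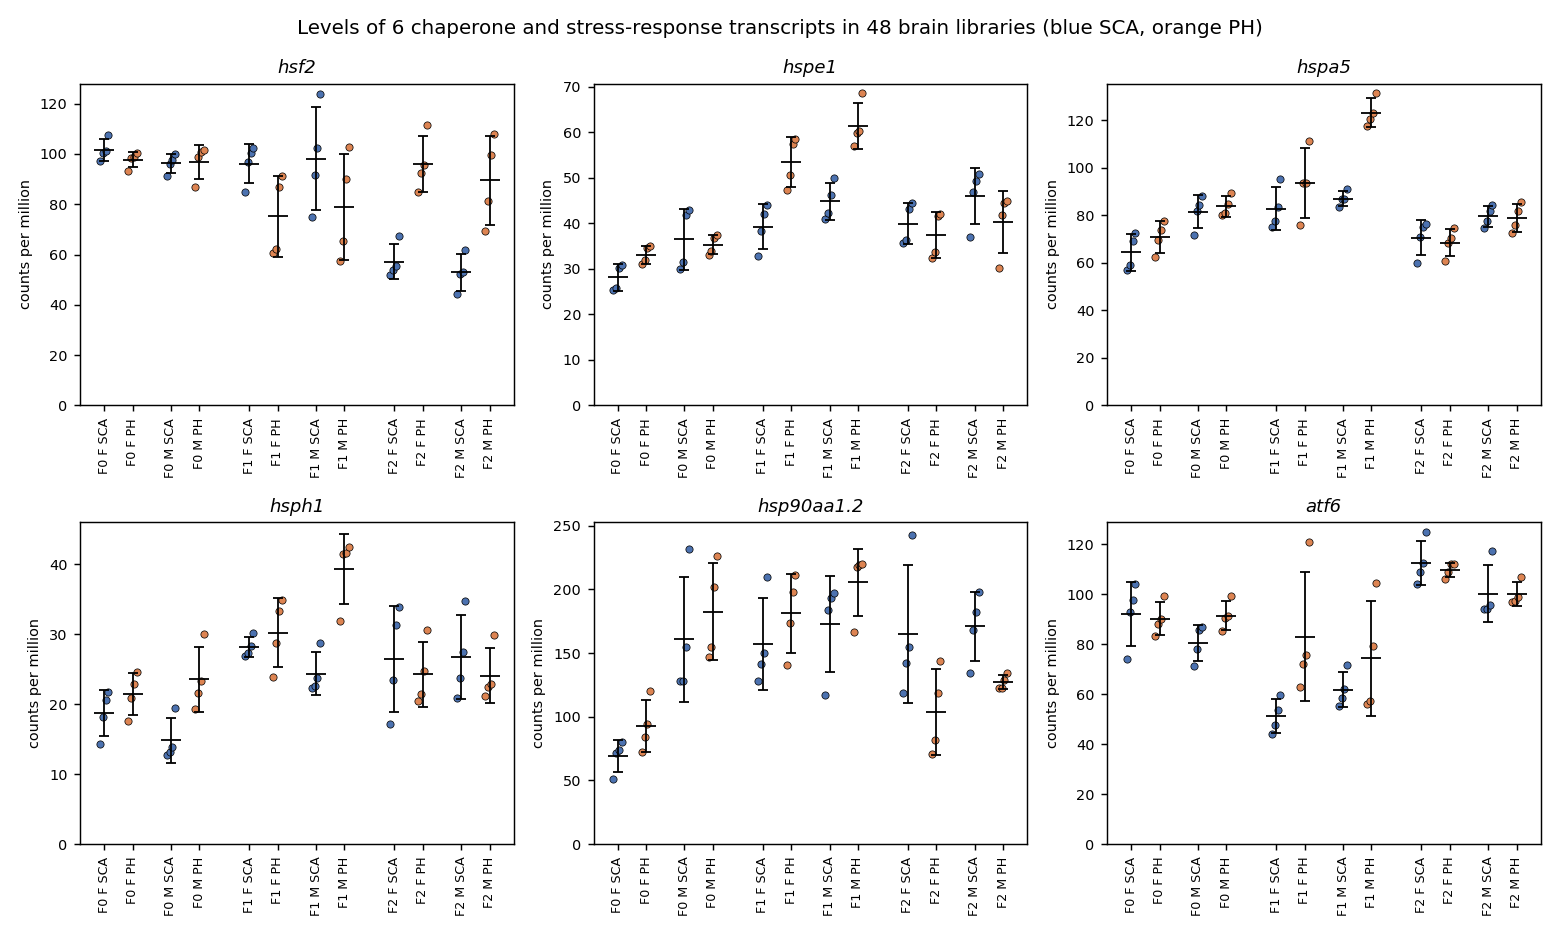
CPM (y axis, linear from 0) of hsf2, hspe1, hspa5, hsph1, hsp90aa1.2 and atf6 in the 12 groups (x axis; F females, M males), with 1 point per library and the mean ± SD of 4 libraries in black. The F2_F_SCA and F2_M_SCA fish lie at 67.5 CPM or below for hsf2, and the F1_M_PH fish lie between 118 and 132 CPM for hspa5.

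The first comparison asked whether brain chaperone transcripts differed in founders that had met permethrin themselves. No member passed the test in either sex or over both sexes, and neither did any other gene, so the called share of 18081 genes was 0% for females, for males, for the sexes together and for the difference between them (edgeR quasi-likelihood test, Benjamini-Hochberg adjusted p under 0.05). At an unadjusted p under 0.05 there were 3 members of 41 in females, 3 in males and 5 over both sexes, where 5.09%, 6.06% and 7.46% of all genes stood. The ER branch had 17 of 24 members below 0 in females and also 17 in males, with medians of -0.06 and -0.03 (log2 fold change), while the medians of all genes were 0.003 and -0.01. Of all genes, 50.7% lay above 0 in females and 48.1% in males. DESeq2 also called 0 members, while it called 18 genes in females, 11 in males and 56 over both sexes. The fit to all 48 libraries called 0 members, with 32 genes in females and 0 in males and over both sexes.

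The members of smallest p in F0 included an ER neurotrophic factor and an ER lectin. The manf transcript encodes mesencephalic astrocyte-derived neurotrophic factor, a secreted ER stress protein. It stood at 5.88, 6.41, 6.47 and 6.93 CPM in F0_F_PH and at 7.37, 7.77, 8.88 and 8.98 in F0_F_SCA. All 4 exposed females lay below all 4 control females. In males the values were 7.67, 8.23, 8.97 and 9.25 CPM in F0_M_PH and 9.57, 9.72, 10.0 and 11.1 in F0_M_SCA. Here too the groups did not overlap. The members given here were picked for their small p, and the share of all genes without such overlap was not counted. The log2 fold change was -0.37 ± 0.13 (SE) in females, -0.26 ± 0.13 in males and -0.32 ± 0.09 over both sexes, with an edgeR adjusted p of 0.828, 0.83 and 0.436, so the difference did not pass in any of them.

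The canx transcript encodes calnexin, the membrane lectin that holds glycoproteins in the ER until they fold. It stood at 212, 218, 233 and 245 CPM in F0_M_PH and at 262, 269, 276 and 279 in F0_M_SCA, without overlap. Exposed males differed from control males by a log2 value of -0.28 ± 0.08 (edgeR adjusted p = 0.734) and -0.19 ± 0.05 over both sexes (adjusted p = 0.436). The hsph1 transcript encodes the HSP110 nucleotide exchange factor of HSP70. It stood at 19.2, 21.6, 23.3 and 30.0 CPM in F0_M_PH and at 12.7, 13.2, 13.8 and 19.5 in F0_M_SCA, where 1 control fish lay inside the range of the exposed fish. Its log2 fold change was 0.64 ± 0.18 in males (edgeR adjusted p = 0.734) and 0.41 ± 0.13 over both sexes (adjusted p = 0.459). The sensor kinase eif2ak3 was also among the 3 of smallest p in males, at 13.3, 15.1, 15.7 and 17.99 CPM in F0_M_PH and 18.1, 18.2, 18.4 and 18.6 in F0_M_SCA, without overlap (log2 fold change -0.25 ± 0.11, edgeR adjusted p = 0.794). For all F0 males, lane and group cannot be told apart. The 8 IDs that mark meninges, skin and epithelium summed to 79.4 to 90.3 CPM in F0_M_PH against 104 to 170.0 in F0_M_SCA, without overlap. In females they summed to 83.3 to 99.4 CPM in F0_F_PH and 94.0 to 128 in F0_F_SCA, with overlap. Their part in the manf and canx values was not tested.

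Among the heat shock genes of F0 females, 1 hspa8 ID and hsp70l had the smallest p. The constitutive HSP70 hspa8 (ENSDARG00000037403) stood at 37.0, 42.4, 45.0 and 50.8 CPM in F0_F_PH and 25.0, 30.5, 30.6 and 39.2 in F0_F_SCA, with slight overlap (log2 fold change 0.47 ± 0.18, edgeR adjusted p = 0.886). The heat-inducible hsp70l stood at 1.83, 2.23, 3.48 and 4.31 CPM in F0_F_PH and 2.56, 2.8, 3.62 and 24.0 in F0_F_SCA. The highest of these was F0_F_SCA 18, the fish with the high eye gene sum, and the other 7 females overlapped. Its log2 fold change of -1.48 ± 0.64 (edgeR adjusted p = 0.962) was -0.03 without that fish.

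The wider pathway in founders gave the same count. Of 48 tested IDs on a list of other cytosolic chaperone genes and 92 on a list of other ER quality control genes, 0 were called in F0 females, F0 males or both sexes, with 3 and 6 at an unadjusted p under 0.05 in females, 2 and 2 in males and 1 and 7 over both sexes.

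The F1 comparison asked whether the offspring of exposed fish differed although they were not exposed themselves. Over both sexes 2 members rose, hspe1 of the mitochondrial chaperonin and hspa5 (BiP), the master chaperone of the ER lumen, and none fell. These are 2 of 42 members, where 0.68% of 18094 genes were called and 0.287% were called higher. Within a single sex no member passed, where 0.0663% of genes were called in females and 0.105% in males, and 0% differed between the sexes in that response. In males 10 members had an unadjusted p under 0.05, in females 3 and over both sexes 10, while 8.94%, 7.94% and 11.4% of all genes did. DESeq2 called 3 members of 158 genes in males, 1 of 150 in females and 6 of 374 over both sexes.

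The hspe1 transcript encodes HSP10, the lid of the chamber in which mitochondrial HSP60 folds proteins. It stood at 47.3, 50.5, 57.5 and 58.5 CPM in F1_F_PH and 32.7, 38.2, 42.0 and 44.0 in F1_F_SCA. All 4 PH females were above all 4 SCA females. Males showed 57.0, 59.8, 60.3 and 68.6 CPM in F1_M_PH and 41.0, 42.3, 46.3 and 50.0 in F1_M_SCA, again without overlap. Over both sexes hspe1 rose by 0.44 ± 0.08 (log2 fold change ± SE, edgeR adjusted p = 0.0121), higher in 8 of 8 PH fish than in any SCA fish of their sex. The change was 0.43 ± 0.11 in females (edgeR adjusted p = 0.178) and 0.45 ± 0.11 in males (adjusted p = 0.156), neither of which passed alone.

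The partner gene hspd1, which encodes HSP60 itself and lies beside hspe1, stood at 70.9, 74.8, 76.2 and 88.5 CPM in F1_F_PH and 51.6, 55.8, 65.8 and 71.1 in F1_F_SCA. Only the lowest PH female lay inside the range of the control females. In males it stood at 83.8, 88.6, 90.6 and 93.7 CPM in F1_M_PH and 51.8, 62.8, 70.4 and 84.0 in F1_M_SCA, where the highest control lay just above the lowest PH male. The log2 fold change over both sexes was 0.37 ± 0.09 (edgeR adjusted p = 0.0761) and did not pass.

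For hspa5 the levels were 118, 120.5, 123 and 132 CPM in F1_M_PH and 83.6, 86.8, 86.9 and 91.0 in F1_M_SCA. These F1_M_PH fish held 4 of the 4 highest hspa5 levels among all 48 brains. Females spread over 75.7, 93.6, 93.7 and 112 CPM in F1_F_PH and 75.0, 77.6, 83.4 and 95.2 in F1_F_SCA, and these 2 groups overlapped. Over both sexes hspa5 rose by 0.33 ± 0.07 (edgeR adjusted p = 0.0424), with 0.50 ± 0.10 in males (adjusted p = 0.0807) and 0.17 ± 0.10 in females (adjusted p = 0.731). The difference between the sexes was -0.33 ± 0.15 (adjusted p = 0.918). In males alone hspa5 passed without F1_F_PH 1 or F1_F_PH 10 (adjusted p from 0.0377 to 0.0478). The call over both sexes was lost in 14 of the 16 fits that left out 1 library, with adjusted p from 0.0532 to 0.1003, and was kept without F1_F_PH 1 or F1_F_SCA 7.

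No other ER chaperone was called in F1. In males 7 of the 8 ER chaperone members, hspa5 included, lay above 0, with a median log2 fold change of 0.24. Of all genes, 47.7% lay above 0 in F1 males. The HSP90 of the ER, hsp90b1 (GRP94), stood at 77.4, 82.4, 84.4 and 99.3 CPM in F1_M_PH and 58.2, 64.9, 66.4 and 68.9 in F1_M_SCA, without overlap (log2 fold change 0.41 ± 0.12, edgeR adjusted p = 0.253). The ER HSP110 hyou1, which recharges BiP, stood at 21.3, 23.8, 27.2 and 29.6 and 16.5, 20.6, 20.8 and 21.8 CPM in the same groups, with 1 PH male inside the control range (0.35 ± 0.14, edgeR adjusted p = 0.451). Neither passed. The lectins calr and canx had opposite signs, with log2 fold changes of 0.26 ± 0.15 and -0.11 ± 0.08, and the disulfide isomerases pdia3, pdia4 and pdia6 lay at 0.14, 0.23 and 0.14.

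No transcription factor below the sensors was called in F1 males. The xbp1 gene had a log2 fold change of 0.13 ± 0.09, atf4a of -0.14 ± 0.12, atf4b of 0.11 ± 0.09 and ddit3 (CHOP) of 0.14 ± 0.16. The degradation genes herpud1, syvn1, edem1 and sel1l lay between -0.11 and 0.09. Among the sensors, atf6 stood at 63.0, 72.0, 75.8 and 121 CPM in F1_F_PH and 44.0, 47.7, 53.6 and 59.5 in F1_F_SCA. The 2 female groups did not overlap, and F1_F_PH 1, the library of lowest total in the series, was far above the other 7 fish. For atf6 the log2 fold change was 0.68 ± 0.21 in females (edgeR adjusted p = 0.323) and 0.26 ± 0.21 in males (adjusted p = 0.768), so neither passed.

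In the cytosolic branch of F1 no member was called. The smallest p belonged to hsph1, at 31.9, 41.5, 41.6 and 42.5 CPM in F1_M_PH and 22.3, 22.6, 23.8 and 28.8 in F1_M_SCA. Every PH male was above every SCA male. In females the values of 23.9, 28.8, 33.4 and 34.9 and 26.8, 27.4, 28.4 and 30.2 CPM overlapped. The log2 fold change was 0.68 ± 0.13 in males (edgeR adjusted p = 0.0542) and 0.08 ± 0.13 in females (adjusted p = 0.919). In males it passed when F1_F_PH 1, F1_F_PH 2 or F1_M_SCA 5 was left out (adjusted p from 0.0384 to 0.0453), also without the filter on low counts and by DESeq2. The difference between the sexes in that response was -0.60 ± 0.19 (females minus males, edgeR adjusted p = 0.918) and was not called.

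Of the other heat shock genes given here for F1, hsp70l and hspb8 had the widest errors. The inducible hsp70l stood at 8.38, 14.7, 18.9 and 22.4 CPM in F1_M_PH and 4.87, 6.79, 9.4 and 9.71 in F1_M_SCA, with overlap (1.06 ± 0.38, edgeR adjusted p = 0.396). The small heat shock protein hspb8, a partner of the co-chaperone bag3 in selective autophagy, stood at 0.815, 1.06, 1.26 and 1.67 CPM in F1_M_PH and 1.58, 2.61, 2.74 and 3.46 in F1_M_SCA, where only 1 pair of fish overlapped (-1.09 ± 0.30, adjusted p = 0.204). The constitutive HSP90 hsp90ab1 had a log2 fold change of 0.21 ± 0.11 and hspa8 (ENSDARG00000068992) one of 0.08 ± 0.11 in F1 males. The heat shock factors lay below 0, with -0.15 ± 0.13 for hsf1 and -0.34 ± 0.13 for hsf2 over both sexes (edgeR adjusted p = 0.733 and 0.31).

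Counted together, 31 of 42 members lay above 0 in F1 males, with a median log2 fold change of 0.14, where 47.7% of all genes lay above 0 with a median of -0.01. In F1 females 27 of 42 lay above 0 with a median of 0.06. For all genes the share above 0 was 46.6% there, with a median of -0.02. Among the wider lists in F1 the collagen chaperone SERPINH1 (ENSDARG00000019949), a heat-inducible serpin of the ER, rose over both sexes by 1.08 ± 0.21 (edgeR adjusted p = 0.0184). It was the only one called of 48 other cytosolic and heat-inducible IDs, and 0 of 91 other ER IDs were called. Before adjustment, 11 and 13 IDs of these lists had a p below 0.05 over both sexes, as had 11.4% of all genes. Other programmes differed in the same fish. Of 38 clock IDs 4 rose and 3 fell over both sexes, and of 18 IDs of glucocorticoid-responsive genes 2 fell. Of all genes, 0.68% were called over both sexes. The glucocorticoid list summed to 734 to 1127 CPM in F1_M_PH against 1301 to 1670.4 in F1_M_SCA. In females it summed to 901 to 1396 CPM in F1_F_PH against 1441 to 2368 in F1_F_SCA, so neither sex had overlap. The part of these programmes in the chaperone values was not tested.

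**Figure D2:**
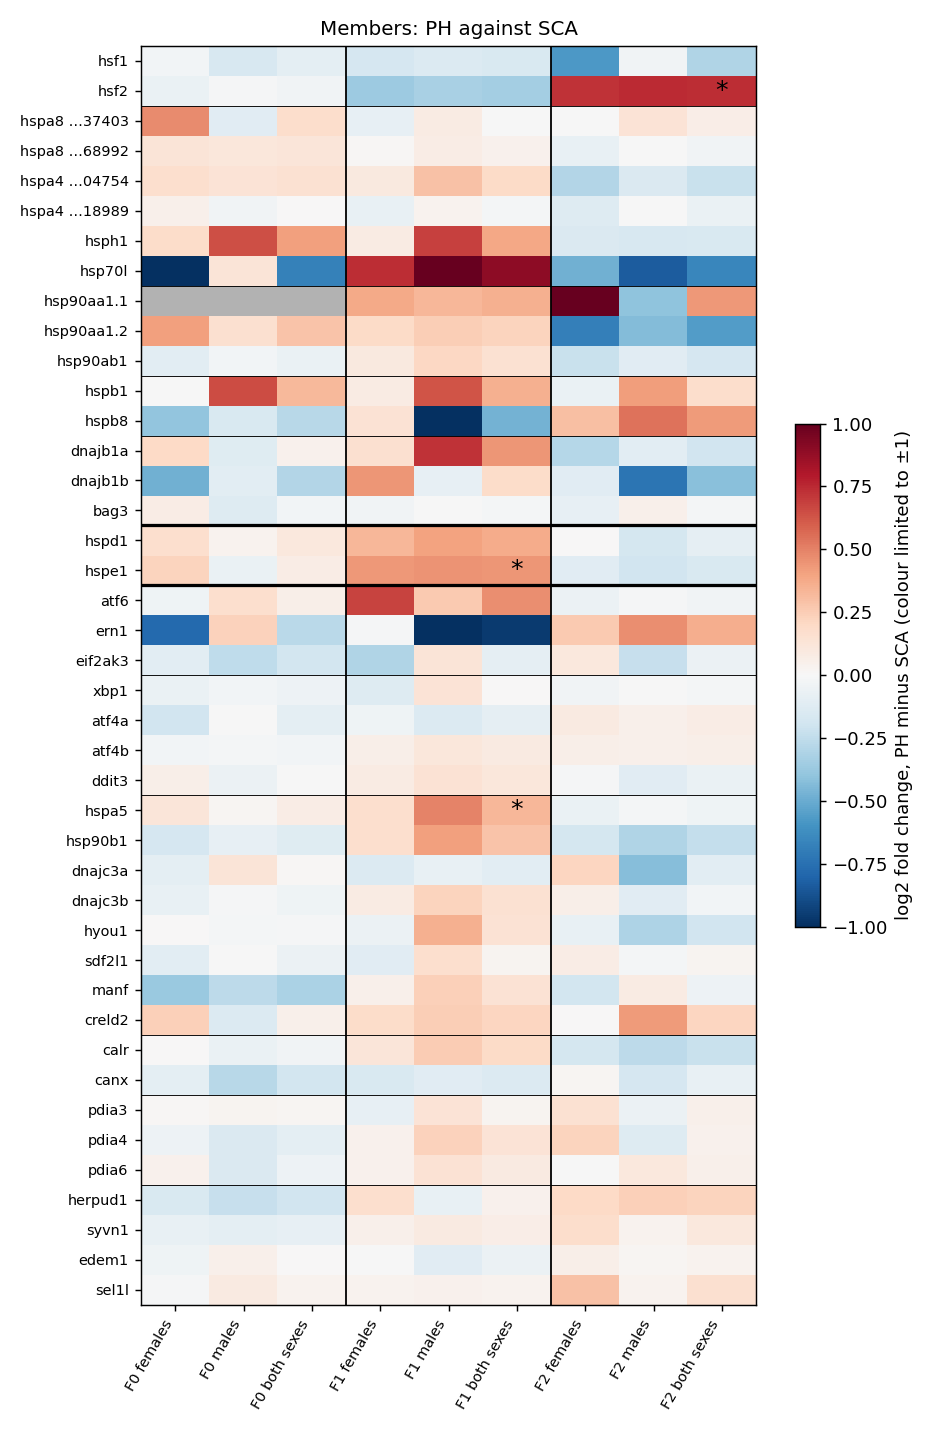
Log2 fold change of PH against SCA (colour, limited to ±1; grey, not tested) for the 42 members (rows, grouped by role, cytosolic on top, mitochondrial between the thick lines and ER below) in each generation for females, males and both sexes (columns). The 3 asterisks mark adjusted p under 0.05, namely hspe1 and hspa5 over both sexes in F1 and hsf2 over both sexes in F2.

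In F2, the grandchildren of exposed fish, 1 member rose over both sexes and none fell. It was hsf2, heat shock factor 2, a transcription factor that acts in development and modulates the response driven by hsf1. This is 1 of 42 members, where 1.1% of 17505 genes were called and 0.691% were called higher. Within a sex no member passed, where 0.137% of genes were called in females, 0.0171% in males and 0.0114% in the difference between the sexes. In females 7 of 42 members had an unadjusted p under 0.05, as did 20.9% of all genes. In males 6 had, as did 8.81% of all genes. DESeq2 called 3 members of 548 genes in females and 1 of 113 in males.

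The hsf2 transcript stood at 85.0, 92.5, 95.5 and 112 CPM in F2_F_PH and 51.7, 54.0, 55.5 and 67.5 in F2_F_SCA. Males showed 69.2, 81.1, 99.7 and 108 CPM in F2_M_PH and 44.2, 52.2, 53.2 and 61.8 in F2_M_SCA. In both sexes every PH fish was above every SCA fish. Over both sexes hsf2 rose by 0.74 ± 0.10 (edgeR adjusted p = 0.0031), with 0.72 ± 0.14 in females (adjusted p = 0.0564) and 0.75 ± 0.14 in males (adjusted p = 0.0885). It passed in females without F2_M_PH 9 or F2_F_SCA 9 (adjusted p from 0.0302 to 0.039) and in males without F2_M_PH 9 (0.0299).

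Set beside founders and F1 control fish, the F2 control fish were the low ones. In F0, hsf2 stood at 102 ± 4.28 CPM in F0_F_SCA, 97.8 ± 3.14 in F0_F_PH, 96.3 ± 3.68 in F0_M_SCA and 97.0 ± 6.77 in F0_M_PH (mean ± SD, n = 4 each). In F2 the means were 57.2 ± 7.1 in F2_F_SCA and 52.9 ± 7.18 in F2_M_SCA, against 96.1 ± 11.2 in F2_F_PH and 89.5 ± 17.5 in F2_M_PH. The F2 PH fish lay near the level of founders and the F2 control fish below it. In F1 the PH fish stood at 60.4, 62.4, 86.9 and 91.3 CPM in females and 57.4, 65.55, 89.9 and 103 in males. The F1 SCA fish ranged from 85.0 to 102 CPM in females and 74.7 to 124 in males. Of the F1 PH fish, F1_F_PH 1 and 2 and F1_M_PH 4 and 6 lay within the range of the F2 control fish.

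No other cytosolic member was called in F2. In F2 females 13 of 16 cytosolic members lay below 0 with a median log2 fold change of -0.12, against 9 of 24 ER members with a median of 0.06, and all genes had a median of 0.02. In F2 males 11 of 16 cytosolic members lay below 0 with a median of -0.07, and those above 0 included hspb8 (0.54) and hspb1 (0.42). Of all genes, 52.7% lay above 0 in F2 females and 48.6% in F2 males, where their median was -0.008. The HSP90 paralogue hsp90aa1.2 stood at 71.0, 81.6, 119 and 144 CPM in F2_F_PH and 119, 142, 155 and 243 in F2_F_SCA, with overlap. In males it stood at 122, 123, 129 and 134 and 135, 168, 183 and 198 CPM, where every PH fish lay below every SCA fish. The log2 fold change was -0.56 ± 0.15 over both sexes (edgeR adjusted p = 0.08) and did not pass. With lane as a covariate it was -0.39 over both sexes and -0.35 in females, where without that term it was -0.68.

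Constitutive hsp90ab1 stood at 1104, 1190, 1204 and 1229 CPM in F2_F_PH and 1245, 1362, 1369 and 1458 in F2_F_SCA, with each PH female below each control female (-0.17 ± 0.05 over both sexes, edgeR adjusted p = 0.108). It passed when F2_F_SCA 9 was left out, with an adjusted p of 0.0437, and by DESeq2. The factor hsf1 had a log2 fold change of -0.57 ± 0.21 in females and -0.04 ± 0.21 in males (edgeR adjusted p = 0.158 and 0.973). The inducible hsp70l lay at -0.66 ± 0.23 over both sexes (adjusted p = 0.128), the opposite sign to F1.

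In the ER branch of F2, sel1l had the smallest p in females. It stood at 48.7, 51.8, 51.9 and 54.1 CPM in F2_F_PH and 38.2, 38.6, 38.9 and 50.1 in F2_F_SCA, where F2_F_SCA 9 alone reached the PH range (0.30 ± 0.10, edgeR adjusted p = 0.138). Without that fish sel1l passed, with an adjusted p of 0.039, and 4 members were called in F2 females, while the genes called in all went from 24 to 1251. In males hsp90b1 and hyou1 had the next smallest p after hsf2, at -0.30 ± 0.12 and -0.31 ± 0.12 (edgeR adjusted p = 0.469 and 0.472). The BiP gene hspa5, which rose in F1, had a log2 fold change of -0.04 ± 0.06 over both sexes in F2, and hspe1 one of -0.15 ± 0.10.

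No gene of the wider lists was called in F2, with 12 of 47 cytosolic and 20 of 91 ER IDs at an unadjusted p under 0.05 over both sexes, where 23.7% of all genes stood. Among other programmes, 10 of 38 clock IDs rose and 2 fell over both sexes, and 1 of 2 cold-inducible RNA-binding protein IDs rose. Of all genes, 1.1% were called over both sexes. The cold-inducible pair summed to 2000.2 to 2132 CPM in F2_F_PH against 1495 to 1911 in F2_F_SCA. In males the sums overlapped, at 1836 to 2146 CPM in F2_M_PH and 1456 to 1914 in F2_M_SCA. The clock IDs summed to 4401.5 to 5924 CPM in F2_F_PH and 4627 to 5050 in F2_F_SCA, with overlap. In males they summed to 4253 to 5804 CPM in F2_M_PH and 3966 to 4215 in F2_M_SCA, without overlap. In F2_M_PH 9, 6, 11 and 12 the clock sums were 4253, 4693, 5459 and 5804 CPM. The hsf2 levels of these fish were 69.2, 81.1, 99.7 and 108 CPM. In the other F2 groups the orders of the fish were not the same. There F2_F_PH 5 and F2_M_SCA 7 were lowest in their groups for both, while in F2_F_SCA the lowest fish differed. In F1_M_PH 4, 6, 7 and 8 the orders were the same. Their clock sums were 3640, 4115, 5275 and 5387 CPM, with hsf2 at 57.4, 65.55, 89.9 and 103 CPM. In the other F1 groups the orders were not the same. The part of the clock and cold-inducible IDs in the hsf2 difference was not tested.

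Of the 42 members, 39 were called in none of the 9 PH against SCA contrasts and 14 in none of the 20 comparisons. The narrowest were edem1, with log2 fold changes from -0.11 to 0.06 over those contrasts, and atf4b, an activator of amino acid and redox genes, from -0.03 to 0.11. Among the co-chaperones that hand clients to HSP70, bag3 ranged from -0.13 to 0.07, dnajb1a from -0.28 to 0.72 and dnajb1b from -0.73 to 0.44. Of the small heat shock proteins hspb1 ranged from -0.07 to 0.65. The BiP partners dnajc3a and dnajc3b ranged from -0.42 to 0.21 and from -0.12 to 0.22, and sdf2l1 and creld2 of the ER lumen from -0.11 to 0.17 and from -0.13 to 0.43. The ER degradation genes herpud1 and syvn1 ranged from -0.23 to 0.24 and from -0.10 to 0.17. The smallest adjusted p of these 12 members was 0.202, that of herpud1.

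Whether the lineage difference itself changed from generation to generation was tested within each sex on all 48 libraries. In females 1 member was called, where 0.178% of 19062 genes were, and in males 2, where 0.21% were. In females it was hsf2, with log2 fold changes of -0.07, -0.36 and 0.72 from F0 to F2 (edgeR adjusted p = 0.0252). In males hsf2 went through -0.01, -0.32 and 0.75 (adjusted p = 0.0214).

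The second member called in males was hspb8, with -0.15, -1.09 and 0.54 from F0 to F2 (edgeR adjusted p = 0.0478). It stood at 4.0, 4.09, 4.12 and 5.7 CPM in F2_M_PH and 2.89, 2.9, 3.05 and 3.32 in F2_M_SCA, without overlap, after lying lower in PH than in SCA males of F1. Its counts were low, at 7 to 46 per library. The ER chaperone hsp90b1 came next in males, with -0.08, 0.41 and -0.30 (adjusted p = 0.0554), and hspa5 had 0.02, 0.50 and -0.02 (adjusted p = 0.116). Of the wider lists only the HSP90 co-chaperone FKBP4 was called, in males (adjusted p = 0.0214). Without F0_F_SCA 18, F0_M_PH 12, F0_M_SCA 6, F2_F_SCA 8 and F2_M_PH 11 together, 0 members were called in either sex. These are called below the libraries that stood apart. High eye or muscle sums are given above for F0_F_SCA 18, F0_M_SCA 6 and F2_F_SCA 8. No reason for the choice of F0_M_PH 12 and F2_M_PH 11 is given here. Leaving out 1 library at a time gave 0 to 1 members in females and 0 to 3 in males.

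By the edgeR test, members were called between the sexes in F0 only. In F0, 8 members were lower in females than in males and 1 was higher, 9 of 41 tested, where 4.85% of 18081 genes were called, 2.01% higher and 2.84% lower in females. The 8 were both hspa8 IDs, both hspa4 IDs, hsp90aa1.2, hspd1, hspa5 and manf, and the 1 higher was eif2ak3. The count was 5 without F0_F_SCA 15, F0_F_SCA 16 or F0_M_SCA 6. In F1 no member was called, where 3.45% of genes were, and in F2 none, where 0.114% were, with 11 and 8 members at an unadjusted p under 0.05 by the same edgeR test, as were 21.6% and 9.11% of all genes. DESeq2 called 4 and 0 members, of 1475 and 216 genes in all. In F1, 4 were called without F1_M_SCA 14 and 1 without F1_F_PH 10 or F1_M_PH 4. All 9 members called in F0 kept their sign in F1 and F2. Whether the sex differences changed between generations was not tested.

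Of the 9, hsp90aa1.2 had the largest difference. Females stood at 50.7, 71.6, 74.1 and 80.2 CPM in F0_F_SCA and 72.5, 84.4, 94.3 and 120.5 in F0_F_PH. Males stood at 128, 128, 155 and 232 and 147, 154, 202 and 226 CPM in F0_M_SCA and F0_M_PH. Every female lay below every male. The log2 difference was -1.07 ± 0.15 (females minus males, edgeR adjusted p = 0.00127) in F0, -0.15 ± 0.13 in F1 and -0.17 ± 0.15 in F2 (adjusted p = 0.54 and 0.836).

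The constitutive hspa8 (ENSDARG00000068992) ranged over 581 to 671 CPM in F0_F_SCA, 606 to 805 in F0_F_PH, 845 to 992 in F0_M_SCA and 922 to 1125 in F0_M_PH, again with every female below every male. Its log2 difference was -0.47 ± 0.06 in F0 (edgeR adjusted p = 0.000809), -0.22 ± 0.07 in F1 and -0.20 ± 0.06 in F2. The other hspa8 ID (ENSDARG00000037403) had -0.65 ± 0.12 in F0 (adjusted p = 0.00741), -0.11 ± 0.17 in F1 and -0.58 ± 0.17 in F2 (adjusted p = 0.758 and 0.212). The HSP110-family hspa4 IDs ENSDARG00000018989 and ENSDARG00000004754 had -0.23 ± 0.05 and -0.44 ± 0.11 in F0 (adjusted p = 0.0167 and 0.0333). In F1 these hspa4 IDs had -0.21 ± 0.07 and -0.23 ± 0.10, and in F2 -0.06 ± 0.06 and -0.02 ± 0.08.

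In the mitochondrion hspd1 was lower in F0 females, with -0.39 ± 0.10 (edgeR adjusted p = 0.0295), a call lost in 9 of 16 fits that left out 1 library (adjusted p from 0.051 to 0.0603). In the ER hspa5 had -0.27 ± 0.07 and manf -0.33 ± 0.09 (adjusted p = 0.0323 and 0.0466). For hspa5 the same sign stood in the later generations, with -0.22 ± 0.07 in F1 and -0.19 ± 0.06 in F2 (adjusted p = 0.0933 and 0.326), neither of which passed. For manf the values were -0.22 ± 0.13 in F1 and -0.44 ± 0.13 in F2 (edgeR adjusted p = 0.323 and 0.249), and neither passed.

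The stress kinase gene eif2ak3 (PERK) went the other way. It stood at 21.8, 23.6, 23.8 and 27.8 CPM in F0_F_SCA, 22.2, 22.8, 22.9 and 22.9 in F0_F_PH, 18.1, 18.2, 18.4 and 18.6 in F0_M_SCA and 13.3, 15.1, 15.7 and 17.99 in F0_M_PH. Every F0 female lay above every F0 male, and the 4 F0_F_PH fish lay within 1 CPM of each other. The log2 difference was 0.50 ± 0.08 (edgeR adjusted p = 0.00175) in F0. In F1 it was 0.20 ± 0.15 and in F2 0.07 ± 0.11, neither of which passed (adjusted p = 0.477 and 0.923).

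Of the F0 males, F0_M_SCA ran on another lane than all females. Among the PH fish alone, all on lane L4, 0 members were called, where 0.0453% of 17677 genes were, and the log2 differences were -0.96 ± 0.19 for hsp90aa1.2, -0.47 ± 0.09 for hspa8 (ENSDARG00000068992), 0.56 ± 0.11 for eif2ak3 and -0.23 ± 0.09 for hspa5. For hspa8 (ENSDARG00000037403) the difference was smaller there, at -0.37 against -0.65 in all 16 libraries. The remaining 4 had -0.19 for hspa4 (ENSDARG00000018989), -0.43 for hspa4 (ENSDARG00000004754), -0.34 for hspd1 and -0.39 for manf. The 8 IDs of oligodendrocyte genes summed to 6747 to 10361 CPM in F0_F_PH and 7273 to 11317 in F0_F_SCA, against 9296 to 21946 in F0_M_PH and 15098 to 17004 in F0_M_SCA, and their part in the sex differences was not tested.

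The called shares of the wider lists lay near the 4.85% and 3.45% of all genes called by sex in F0 and F1, and nothing is read from them. In F0 females the mitochondrial HSP70 HSPA9 (-0.27), the HSP90 co-chaperone PTGES3 (-0.40) and the small heat shock protein hspb15 (-0.59) were lower. These are 3 of 48 IDs on the list called cytosolic, where HSPA9 was placed although it is mitochondrial. Of 92 ER IDs the translocon subunit SEC61A1 (ENSDARG00000005675, -0.26), TXNDC12 (-0.36) and DNAJC10 (-0.35) were lower and ppp1r15a, which reverses the translational block that PERK imposes, was higher by 0.30. In F1 females the kinase chaperone CDC37 (-0.40), the chaperonin subunit CCT2 (ENSDARG00000104674, -0.42), the segregase VCP (-0.23) and the ubiquitin-conjugating enzyme UBE2G2 (-0.26) were lower, and CREBRF was higher by 1.41, out of 48 cytosolic and 91 ER IDs.

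**Figure D3:**
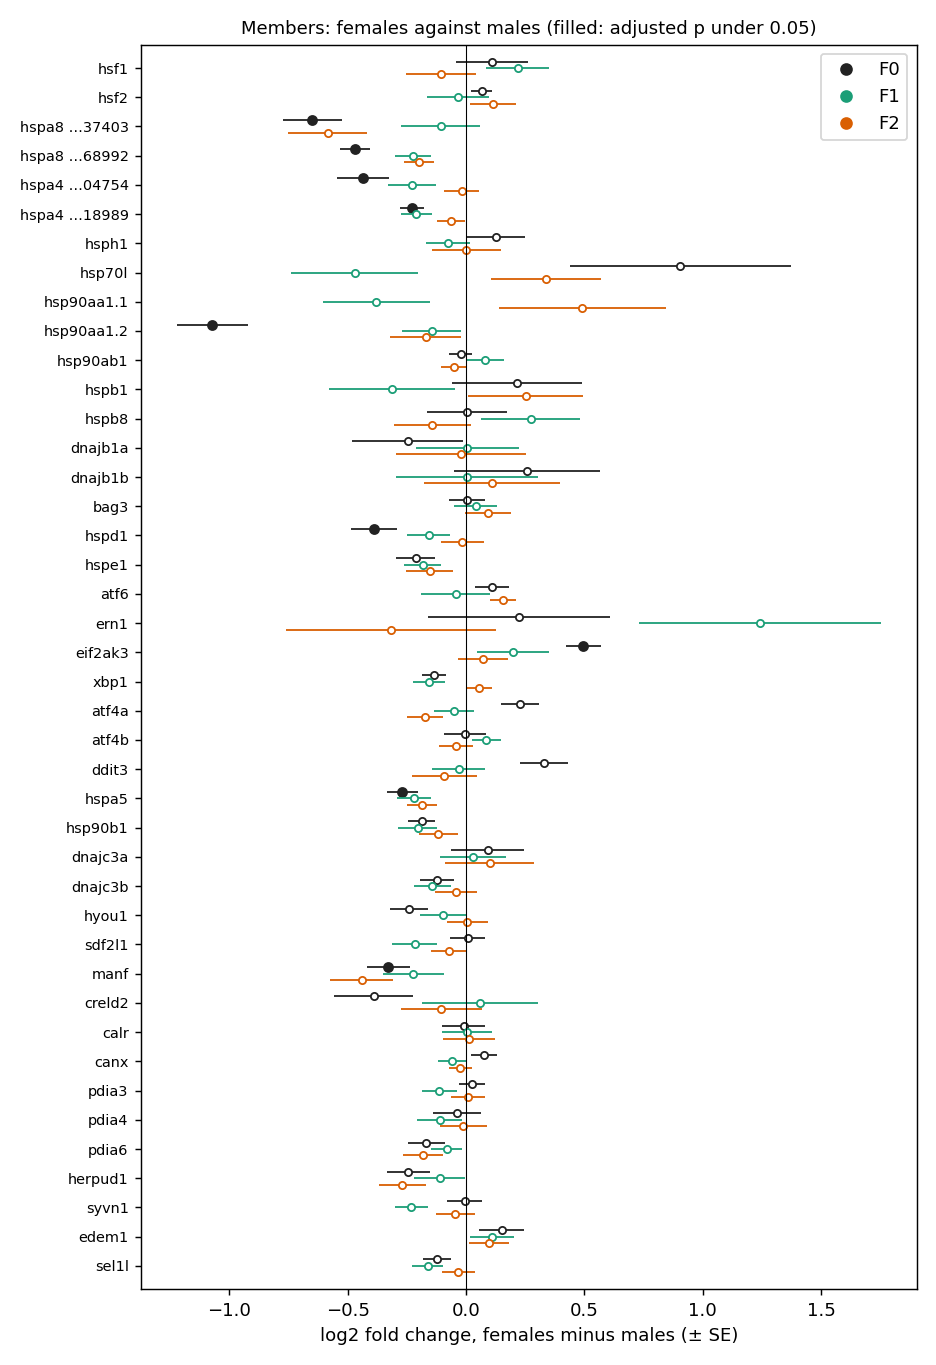
Log2 fold change of females minus males (x axis, ± SE) for the 42 members (y axis, by role) in F0 (black), F1 (green) and F2 (orange), with filled points for adjusted p under 0.05. Filled points occur in F0 only, 8 to the left of 0 and 1 (eif2ak3) to the right.

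Control fish of the 3 generations were compared as well, where F1 and its file series cannot be told apart, and F0 and F2 control fish shared a flow cell but no lane. From F0 to F1, 11 members rose and 9 fell, 20 of 42, where 43% of 19062 genes were called, 21.6% higher and 21.4% lower. From F0 to F2, 5 rose and 3 fell, where 10.8% of genes were called, 6.36% higher and 4.4% lower. From F1 to F2, 8 rose and 9 fell, where 29.1% of genes were called, 14.4% higher and 14.7% lower. These are 47.6%, 19% and 40.5% of the members, and the 3 comparisons share their fish. The share from F0 to F1 lay near that of all genes, so nothing about the members as a set is read from it. From F0 to F2 the count was 5 without F0_F_SCA 15, F0_M_SCA 6, F0_M_SCA 10 or F2_M_SCA 10, and 14 without F2_M_SCA 5.

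The members of smallest p in the step from F0 to F1 came from both branches. The hspa4 ID ENSDARG00000004754 rose from F0 to F1 by 0.62 ± 0.10 (edgeR adjusted p = 3.4e-06) and hspa8 (ENSDARG00000068992) by 0.37 ± 0.07 (adjusted p = 3.51e-05), while hspb8 had -0.88 ± 0.16 and bag3 -0.43 ± 0.08 (adjusted p = 3.33e-05 and 5.03e-05). Over the same step atf6 had -0.61 ± 0.10 and atf4a 0.47 ± 0.08 (adjusted p = 1.04e-05 and 1.69e-05).

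The ER sensor atf6 was low in the F1 control fish and high in F2. It stood at 44.0, 47.7, 53.6 and 59.5 CPM in F1_F_SCA and 55.2, 58.5, 61.9 and 71.8 in F1_M_SCA. In F2 it stood at 104, 109, 112 and 125 CPM in F2_F_SCA and 94.0, 94.1, 95.5 and 117 in F2_M_SCA, and every F2 control fish lay above every F1 control fish. From F1 to F2 atf6 rose by 0.92 ± 0.11 (edgeR adjusted p = 4.87e-09), hyou1 by 0.43 ± 0.09 and bag3 by 0.41 ± 0.08 (adjusted p = 0.000117 and 0.00013).

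Falling from F1 to F2 were hsf2 with -0.82 ± 0.11, atf4a with -0.50 ± 0.08 and the disulfide isomerase pdia6 with -0.44 ± 0.07 (edgeR adjusted p = 6.02e-08, 7.15e-06 and 1.29e-05). The factor hsf2 was also lower in F2 than in F0 control fish, with -0.85 ± 0.11 (adjusted p = 5.62e-07). Its F2_F_SCA fish ranged over 51.7 to 67.5 CPM and its F2_M_SCA fish over 44.2 to 61.8, below all 8 F0 control fish, which lay at 97.2 to 107 in females and 91.3 to 100.1 in males.

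From F0 to F2 the members that rose included hsph1 by 0.67 ± 0.13, hsp90aa1.2 by 0.67 ± 0.16, hspe1 by 0.42 ± 0.09 and hspd1 by 0.40 ± 0.10 (edgeR adjusted p = 0.000779, 0.00542, 0.00218 and 0.00854). The calnexin gene canx fell, with -0.17 ± 0.05 (adjusted p = 0.0294), a call lost in 7 of 48 fits that left out 1 library (adjusted p from 0.0517 to 0.0872). Of the wider lists, 22 of 48 cytosolic IDs rose and 4 fell from F0 to F1, and 1 rose and 15 fell from F1 to F2. Of 93 ER IDs 28 rose and 18 fell from F0 to F1, and 12 rose and 17 fell from F1 to F2. Of all genes, 43% were called from F0 to F1 and 29.1% from F1 to F2, and nothing is read from the counts of these lists. The smallest p in the step from F0 to F1 belonged to the signal peptidase subunit SPCS2, which fell by 1.36, the ATF6 protease MBTPS1, higher by 0.49, and CCT8, higher by 0.66. CCT7 was higher by 0.42, and the disulfide isomerase PDIA5 fell by 0.94. From F1 to F2 the same 5 had the smallest p with the opposite signs, such as 1.47 for SPCS2 and -0.44 for MBTPS1. From F0 to F2 they were CREB3L1 (0.86), FKBP4 (0.37), DNAJB11 (0.65), SEC62 (0.49) and TRIB3 (0.56). Called in that comparison were 6 of 48 cytosolic and 11 of 93 ER IDs, where 10.8% of all genes were.

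**Figure D4:**
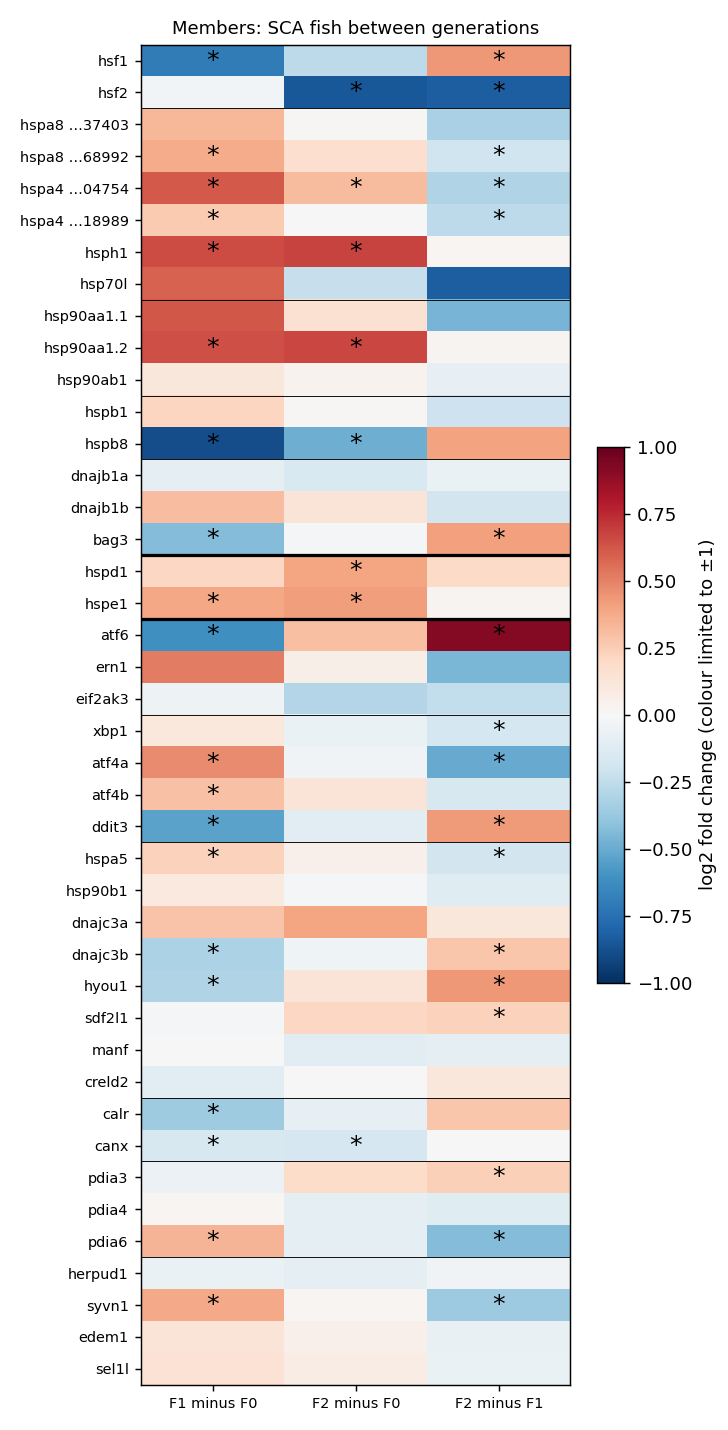
Log2 fold change between control (SCA) fish of 2 generations (colour, limited to ±1) for the 42 members (rows, by role) in F1 minus F0, F2 minus F0 and F2 minus F1 (columns), with asterisks for adjusted p under 0.05. Asterisks mark 20, 8 and 17 members, and the hsf2 row is near 0 in the first column and blue in the other two.

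The sensor gene ern1 (IRE1) varied between fish in steps. In 23 libraries it stood at 19.97 to 36.3 CPM and in the other 25 at 68.7 to 152.6 CPM, with no library between and a 1.89-fold gap. Both levels occurred in 11 of the 12 groups. The exception was F1_M_PH, where all 4 fish were at the low level, with 21.8, 21.9, 22.6 and 23.9 CPM, against 19.97, 23.4, 141 and 153 in F1_M_SCA. Of the other groups, F0_F_PH held 3 low fish of 4, and F0_F_SCA, F1_F_PH, F1_F_SCA and F2_M_PH held 1 each. The log2 fold change in F1 males was -1.90 ± 0.75 (edgeR adjusted p = 0.475), and ern1 was called in none of the comparisons. For comparison, eif2ak3 ranged over 2.55-fold and atf6 over 2.83-fold in all 48 libraries.

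**Figure D5:**
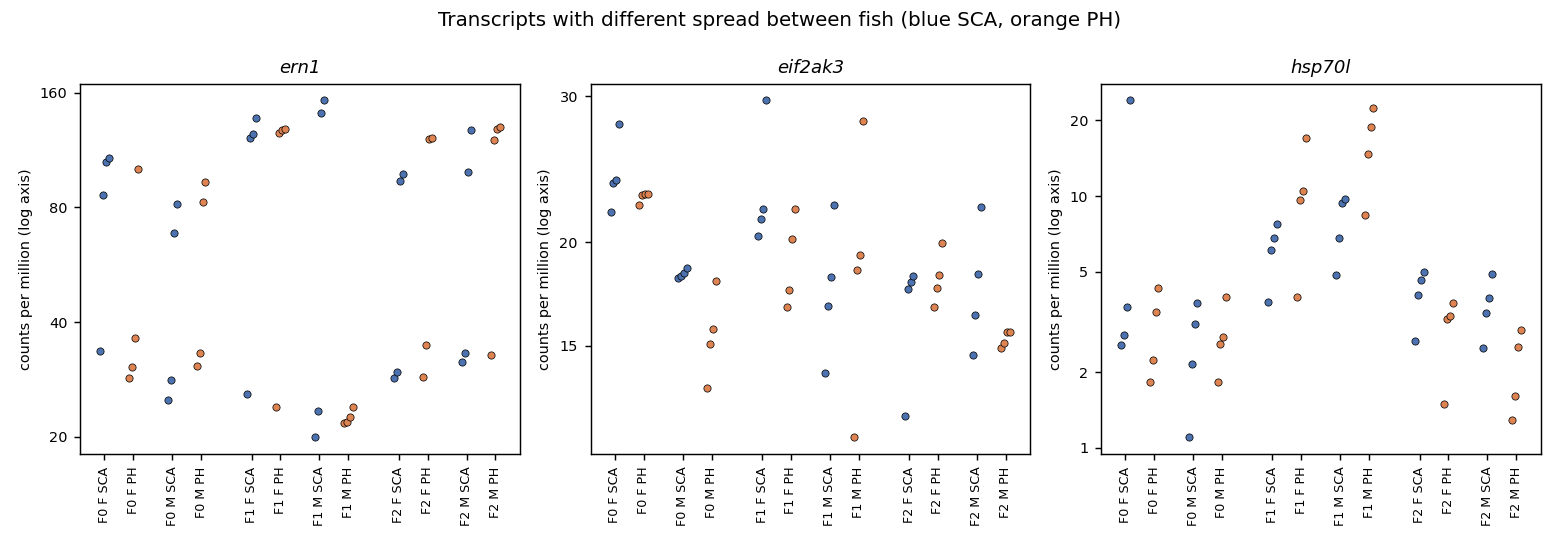
CPM (y axis, log scale) of ern1, eif2ak3 and hsp70l in the 12 groups (x axis), with 1 point per library. For ern1 23 libraries lie at 36.3 CPM or below and 25 at 68.7 CPM or above, and for hsp70l 1 fish, F0_F_SCA 18, stands at 24.0 CPM above its group.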

How the data were processed

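RNA from whole adult brains was sequenced as paired ends on a BGISEQ-500, per the labels. The authors deposited raw read counts per gene for each of 48 libraries. The submitters' processing notes name STAR 2.7, HTSeq 0.11.2, DESeq2 1.24.0 and the build GRCz11 (danRer11). Strandedness and annotation version: not given in the sources used here. Whether reads of overlapping and antisense genes were told apart is therefore not known. Lines of the deposited count tables that name no gene were left out of library sizes and tests: 60.3% to 65.4% of each table's total fell in no feature, and 31.4% to 36.6% fell in genes.

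Groups came from the labels, 4 libraries each. The labels number each source without saying whether a library is 1 fish or a pool, and the p-values then reflect spread among libraries, which may be technical. Genes were kept by filterByExpr, scaled by TMM and tested with edgeR 4.0.16 (robust quasi-likelihood, R 4.3.3) on the 16 libraries of a generation, or on all 48 for control generations and for tests between generations. Benjamini-Hochberg adjustment ran over all genes tested, with 0.05 as the threshold. CPM used TMM factors over 48 libraries. SE is the log2 fold change divided by the root of F. DESeq2 1.42.0, other scaling, no filter, other library sets and leaving out each library were the alternatives. The scripts were tested on simulated data.

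The members and lists were chosen with earlier results of these data known. Full statistics were given for members called, or the 3 of smallest p, in each PH against SCA contrast, the 6 called of smallest p by sex and generation, and up to 5 called genes of the wider lists. Other members are given by their values, and members named outside that rule were chosen after their values were seen. The share of all genes whose groups do not overlap was not counted in any contrast. Flow cell and lane were read from the names of the deposited files. Marker lists of microglia, erythrocytes, pituitary and meninges or skin summed to 192 to 429, 76.0 to 481, 1.36 to 13.7 and 79.4 to 170.0 CPM, and radial glia to 3922 to 6300.4.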

Additional observations from a re-analysis of the deposited data

Results flagged for a closer look

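Of 180 sets of 4 libraries checked, 1 member in 1 group each, 15 held a library far from the other 3, where chance gives about 1 in 20. For atf4a F1_M_SCA 12 stood at 168 CPM (others 131 to 136) and F2_F_PH 4 at 87.3 (others 99.8 to 100.2). For atf6 F2_M_SCA 10 stood at 117 CPM (others 94.0 to 95.5). For eif2ak3 F0_F_PH 9 stood at 22.2 CPM (others 22.8 to 22.9), F1_F_SCA 7 at 29.7 (others 20.4 to 21.9) and F2_F_SCA 9 at 12.3 (others 17.6 to 18.2).

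For hsp90aa1.2 F1_M_PH 7 stood at 166 CPM (others 217 to 220) and F1_M_SCA 14 at 117 (others 184 to 197). For hsph1 F0_M_SCA 17 stood at 19.5 CPM (others 12.7 to 13.8) and F1_M_PH 4 at 31.9 (others 41.5 to 42.5). For hspa8 (ENSDARG00000037403) F2_M_SCA 10 stood at 69.2 CPM (others 45.8 to 49.7). For hspa8 (ENSDARG00000068992) F0_M_PH 12 stood at 1125 CPM (others 922 to 950) and F1_F_SCA 4 at 802 (others 945 to 952). For manf F2_M_PH 6 stood at 11.1 CPM (others 9.71 to 9.81) and F2_M_SCA 10 at 11.6 (others 8.55 to 9.06). The library F2_M_SCA 10 was the high one for atf6, hspa8 (ENSDARG00000037403) and manf.

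The difference between PH and SCA fish differed between generations for hsf2 in females (edgeR adjusted p = 0.0252) and males (0.0214), and for hspb8 in males (0.0478).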

How the results depend on the processing

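Of 51 member and comparison pairs, 31 kept their call under each alternative run, 8 lost it and 12 gained it under at least 1, and 0 reversed. The hspe1 call in F1 and the hsf2 call in F2 were kept throughout. DESeq2 called more members: 1 in F1 females, 3 in F1 males, 6 over both sexes of F1, 4 by sex in F1, 3 in F2 females, 1 in F2 males and 3 over both sexes of F2. The fit to 48 libraries called 1, 2 and 5 in F1 females, males and both sexes, and 2 in F2 females and 2 over both sexes. With no filter on low counts 1 was called in F1 males, 1 in F2 females and 1 between generations in males. Without the libraries that stood apart, 0 were called between generations in either sex. The PH fish of lane L4 alone, chosen after seeing the data, gave 0 by sex in F0. The causes were not tested.

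Over all genes DESeq2 called 374 and the 48-library fit 293 over both sexes of F1 against 123, and 941 and 938 over both sexes of F2 against 193, where lane as a covariate left 55 and the fit without libraries that stood apart 67.

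Leaving out 1 library gave 5 to 9 members by sex in F0, 0 to 2 in F1 males, 1 to 2 over both sexes of F1, 0 to 4 by sex in F1, 0 to 4 in F2 females, 0 to 1 in F2 males and 1 to 2 over both sexes of F2. For control fish it gave 20 to 22 from F0 to F1, 5 to 14 from F0 to F2 and 13 to 19 from F1 to F2, and between generations 0 to 1 in females and 0 to 3 in males. It gave 0 to 0 elsewhere. DESeq2 was not run between generations. Source numbers recur in all 12 groups, but nothing says that they pair fish, and within a generation and sex only the F0 females share more than 1 between PH and SCA. With a replicate block on the 4 F0 females numbered alike, 0 members and 60 genes were called.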
